A study of Mus musculus with 4 samples.

Results

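The cyclins that carry germ cells from mitotic divisions into meiosis, together with the kinase Cdk7, were followed through the adult mouse testis by single-nucleus RNA-seq (snRNA-seq). The 10 genes were taken by symbol from the 55357 genes of the count matrices: the A-type cyclins Ccna1 (ENSMUSG00000027793) and Ccna2 (ENSMUSG00000027715), the B-type cyclins Ccnb1 (ENSMUSG00000041431) and Ccnb2 (ENSMUSG00000032218), the D-type cyclins Ccnd1 (ENSMUSG00000070348), Ccnd2 (ENSMUSG00000000184) and Ccnd3 (ENSMUSG00000034165), the E-type cyclins Ccne1 (ENSMUSG00000002068) and Ccne2 (ENSMUSG00000028212), and Cdk7 (ENSMUSG00000069089). Nuclei came from whole testes of WT and Dhx37-/- males aged 8 weeks, with 2 libraries per genotype. The Dhx37-/- mice, on a C57BL/6 base, carried the floxed Dhx37 allele on both chromosomes and a Cre transgene under the Amh promoter, which is active in Sertoli cells, so Dhx37, an RNA helicase gene, was targeted in Sertoli cells. The WT animals were littermates, whose alleles at the floxed locus were not given in the sources used here. The question addressed here was at which germ stage and in which somatic class each gene was read, and whether that differed between the genotypes.

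Cyclins are the regulatory partners of cyclin-dependent kinases, and their turnover gives the cell cycle its direction. D-type cyclins work with Cdk4 and Cdk6 to release the brake of the retinoblastoma family, E-type cyclins with Cdk2 at the onset of DNA synthesis, and A- and B-type cyclins with Cdk2 and Cdk1 through DNA synthesis and division. Cdk7, with cyclin H and Mat1 (the products of Ccnh and Mnat1), forms the CDK-activating kinase and is also a subunit of a general transcription factor. In the testis Ccna2 is the A-type cyclin of dividing cells, whereas Ccna1 is the male meiotic A-type cyclin and is required for the first meiotic division in mice. Spermatids no longer divide.

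The matrices held 51797891 to 75611263 UMIs (unique transcript tags) per library. In all, 37588 nuclei were kept, 8309 to 10339 per library with median depths of 3303 to 4212 UMIs. Of these, 20870 (55.5%) could be gated to 1 of 12 classes by panels of marker genes that hold none of the members. Nuclei left ungated made up 56.4% and 52.7% for WT but 32.0% and 37.4% for Dhx37-/-. Early prophase nuclei had median depths of 2423 and 2895 UMIs (WT) against 4078 and 4818 (Dhx37-/-). Late spermatocytes had 3444.5 and 3516 against 5228 and 6495.5 UMIs. The genotypes overlapped in depth for T cells and endothelial cells only. In every other class both Dhx37-/- libraries were deeper than both WT libraries. Macrophages had 2390.5 and 2524 against 2930 and 3247.5 UMIs, and Sertoli nuclei 8305 and 5040.5 against 8476.5 and 9120. The part of these differences in the genotype comparisons was not tested. The 5 germ classes were spermatogonia with 196 nuclei (23 to 96 per library), early meiotic prophase with 890 (63 to 515), late spermatocytes with 1312 (193 to 464), round spermatids with 6444 and elongating spermatids with 8720. The somatic classes were Sertoli cells with 692 nuclei (28 to 350 per library), Leydig cells with 982, macrophages with 543, T cells with 95, endothelial cells with 214, peritubular myoid cells with 193 and fibroblasts with 589. Between 20 and 29 barcodes were shared by any 2 libraries. The spermatogonia gate also held markers of early prophase, at 2113 CPM in sum against 1870 CPM for its own panel. Levels below are CPM, the UMIs of a gene scaled to a fixed total of UMIs of all genes, summed over the nuclei of a class in a library, and are given as the mean ± SD of the 4 libraries unless a genotype is named.

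RNA from outside nuclei was also counted. Protamine and transition protein RNA, which only spermatids make, showed that free RNA gave 7.36% to 12.5% of the UMIs of Sertoli nuclei and 10.4% to 35.3% of those of spermatogonia, early prophase and late spermatocytes. This free RNA held Ccna1 at 71.2 to 88.1 CPM and Ccnb2 at 127 to 202 CPM, but Ccnd1 at 4.91 to 7.46 CPM and Cdk7 at 18.4 to 24.3 CPM. The share could not be estimated in round and elongating spermatids, which make these transcripts themselves, so how much of a spermatid level was free RNA is not known. For the other classes the level that free RNA alone would give is stated beside several of the levels close to it. The targeted gene was low in Sertoli nuclei, with 6 and 3 Dhx37 UMIs in WT and 17 and 29 in Dhx37-/- (9.31, 20.5, 8.27 and 8.84 CPM). This does not test the deletion, because the loxP sites flank an early exon and the UMIs were read near the 3′ ends of transcripts.

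The 3 cyclins that rose together between early prophase and late spermatocytes were Ccna1, Ccnb1 and Ccnb2. Their promoters are shown to make the letters around their start sites visible. RefSeq windows, 250 bases before to 50 bases after the start on the GRCm38.p6 build, were at hand for 6 of the 10 genes (Ccna1, Ccnb1, Ccnb2, Ccnd3, Ccne1 and Cdk7). Capitals mark CCAAT, the box that the factor NF-Y can bind, and TTTGAA or TTTAAA, the letters of the cell cycle homology region found in promoters of genes of late cell cycle stages, on either strand. No match of CCAAT overlapped one of TTTGAA or TTTAAA. The Ccna1 window is chr3:55055006-55055305, the Ccnb1 window chr13:100786437-100786736 and the Ccnb2 window chr9:70421505-70421804, all on the minus strand.
Ccna1: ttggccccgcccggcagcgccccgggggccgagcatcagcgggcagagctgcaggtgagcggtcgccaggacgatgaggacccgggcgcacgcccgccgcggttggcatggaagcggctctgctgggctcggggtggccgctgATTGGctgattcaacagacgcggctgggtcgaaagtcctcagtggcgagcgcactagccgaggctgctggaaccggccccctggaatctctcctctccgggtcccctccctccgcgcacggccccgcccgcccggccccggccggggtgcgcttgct
Ccnb1: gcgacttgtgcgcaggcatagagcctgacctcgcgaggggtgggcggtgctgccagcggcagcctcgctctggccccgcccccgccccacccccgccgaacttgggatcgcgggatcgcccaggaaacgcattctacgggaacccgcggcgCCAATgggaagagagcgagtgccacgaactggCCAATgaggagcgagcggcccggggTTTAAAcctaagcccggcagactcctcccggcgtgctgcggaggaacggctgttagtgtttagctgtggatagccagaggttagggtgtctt
Ccnb2: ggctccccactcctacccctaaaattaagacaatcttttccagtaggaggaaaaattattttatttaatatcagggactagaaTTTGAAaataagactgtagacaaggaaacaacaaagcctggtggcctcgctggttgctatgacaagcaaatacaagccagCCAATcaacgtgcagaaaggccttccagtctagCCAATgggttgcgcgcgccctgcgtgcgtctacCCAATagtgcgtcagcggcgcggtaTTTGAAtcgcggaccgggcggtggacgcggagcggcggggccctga
The Ccna1 window held 1 CCAAT on the opposite strand, 107 bases before the start, and no TTTGAA or TTTAAA. The Ccnb1 window held CCAAT 99 and 67 bases before the start, followed by TTTAAA at 42 bases. In the Ccnb2 window CCAAT lay 87, 54 and 21 bases before the start, with TTTGAA 167 bases before and 5 bases after it. Of 32544 different promoter windows of the same length, 37.4% held CCAAT on either strand, 11.6% held it at least 2 times, 27.5% held TTTGAA or TTTAAA, and 10.7% held both motifs. These are descriptions of letters, and binding was not measured.

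**Figure D1:**
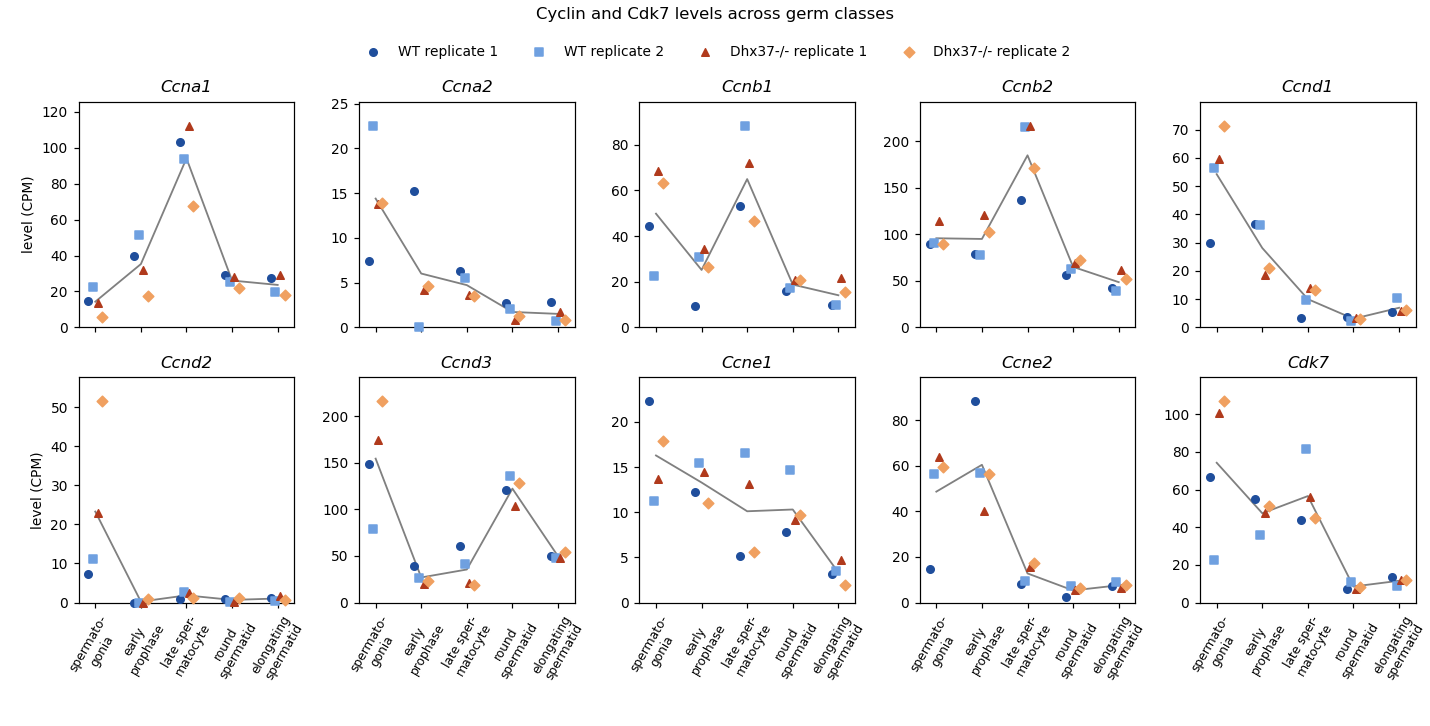
Level of each of the 10 genes (CPM, linear axis from 0 and scaled per gene) in the 5 germ classes. Points are the 4 libraries, blue for WT and red or orange for Dhx37-/-, and the grey line joins their means. Ccna1, Ccnb1 and Ccnb2 have their highest mean in late spermatocytes, Ccna2, Ccnd1, Ccnd2, Ccnd3, Ccne1 and Cdk7 in spermatogonia, and Ccne2 in early prophase.

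From spermatogonia to early prophase Ccnd2 and Ccnd3 were called lower, Ccna1 was called higher, and the other 7 genes did not pass the test. Ccnd2, a D-type cyclin of differentiating spermatogonia, stood in spermatogonia at 7.43 and 11.3 CPM in WT and 22.9 and 51.5 CPM in Dhx37-/-. In early prophase it was at 0 in 3 libraries and at 0.997 CPM in Dhx37-/- replicate 2, with 3 UMIs in all. The spermatogonia values rested on 1 UMI in each WT library and on 5 and 26 UMIs in the Dhx37-/- libraries. The fitted log2 fold change was -5.16 ± 0.79 (SE) with an adjusted p of 3.4e-05 (edgeR quasi-likelihood test with the library as a block, adjusted over all genes tested). Without Dhx37-/- replicate 2 Ccnd2 did not pass the filter on low counts and was not tested. It thus entered the test through the spermatogonia of the library where it was highest, and its p-value is no support for a fall.

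Ccnd3 also fell, on more UMIs (7 to 109 per library in spermatogonia). It was read at 149, 78.8, 174 and 216 CPM in spermatogonia (WT replicates 1 and 2, then Dhx37-/- replicates 1 and 2, the order kept below) and at 39.6, 25.8, 19.7 and 22.6 CPM in early prophase. Free RNA alone would give 32.1 CPM in early prophase of WT replicate 1. The classes did not overlap, and the log2 fold change was -2.35 ± 0.33 (adjusted p = 1.04e-05). Ccnd1, the third D-type cyclin, had 29.7, 56.3, 59.5 and 71.3 CPM in spermatogonia and 36.6, 36.2, 18.6 and 20.9 CPM in early prophase, which overlapped. Its log2 fold change of -0.86 ± 0.39 did not pass the test (adjusted p = 0.131).

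Ccna1 had 14.9, 22.5, 13.7 and 5.94 CPM in spermatogonia, on 2 to 3 UMIs per library. Free RNA alone would give 9.12 to 21.1 CPM there, so these values were not above background in 2 of 4 libraries. Early prophase had 39.6, 51.6, 32.1 and 17.6 CPM, above the free RNA level in 4 of 4 libraries, and the log2 fold change was 1.74 ± 0.40 (adjusted p = 0.00239). Without Dhx37-/- replicate 2, which holds the most early prophase nuclei, the same change was 1.55 with an adjusted p of 0.0664.

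Ccna2, the mitotic A-type cyclin, was read on 1 to 7 UMIs per library in spermatogonia (7.43, 22.5, 13.7 and 13.9 CPM). In early prophase it had 15.2, 0, 4.14 and 4.65 CPM, and its log2 fold change of -0.89 ± 0.59 did not pass the test (adjusted p = 0.323). Its mean went from 14.4 ± 6.20 CPM in spermatogonia through 6.01 ± 6.50 and 4.71 ± 1.39 CPM in the 2 spermatocyte classes to 1.71 ± 0.832 CPM in round and 1.5 ± 1.00 CPM in elongating spermatids, and no single step passed.

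At this first step 1 of 10 members rose and 2 of 10 fell, where 11.9% of the 22620 genes tested were called higher and 5.78% lower. The falls counted include Ccnd2, whose p-value is no support for a fall. The split of all calls depended on the scaling: 67.3% of called genes were higher with TMM normalization, and 34.5% with DESeq2 size factors, which moved the median of all genes by -0.40 on the log2 scale. With those factors Ccna1, Ccnd2 and Ccnd3 kept their direction and Ccnd1 and Ccnb1 also passed as lower. The WT libraries alone, with 35 and 23 spermatogonia, gave no member call at this step. The Dhx37-/- libraries alone, with 42 and 96, gave 5. The genotypes differed in nuclei here, so these counts are no test of a difference between them.

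From early prophase to late spermatocytes Ccna1, Ccnb1 and Ccnb2 rose. Ccnb2, which with Cdk1 forms one of the M-phase kinases, was at 79.2, 77.5, 121 and 102 CPM in early prophase and at 136, 215, 217 and 171 CPM in late spermatocytes. Every late spermatocyte library was above every early prophase library, with a log2 fold change of 1.00 ± 0.20 (adjusted p = 0.00025). Ccnb2 was already at 95.7 ± 12.5 CPM in spermatogonia, where free RNA alone would give 20.9 to 35.8 CPM.

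Ccnb1, the principal M-phase cyclin of somatic cells, had 9.14, 31.0, 34.1 and 26.3 CPM in early prophase and 53.1, 88.3, 71.9 and 46.5 CPM in late spermatocytes. The early prophase value of WT replicate 1 was at the level that free RNA alone would give (9.94 CPM), and the other 3 libraries were above it. The classes did not overlap, and the gene rose with a log2 fold change of 1.37 ± 0.28 (adjusted p = 0.000346). Its levels in spermatogonia, 44.6, 22.5, 68.6 and 63.4 CPM, overlapped those of late spermatocytes.

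For Ccna1 the late spermatocyte values were 103, 93.8, 112 and 67.4 CPM, all above the highest early prophase value of 51.6 CPM. The log2 fold change was 1.70 ± 0.23 (adjusted p = 9.74e-07). Free RNA alone would give 9.22 to 26.5 CPM of Ccna1 in this class.

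The remaining 2 calls at this step were losses. Ccne2, the E-type cyclin that was highest in early prophase (88.4, 56.8, 40.4 and 56.2 CPM), stood at 8.33, 9.66, 15.6 and 17.5 CPM in late spermatocytes. Free RNA alone would give 8.21 CPM in late spermatocytes of WT replicate 1. No library overlapped, and Ccne2 fell with a log2 fold change of -1.96 ± 0.32 (adjusted p = 1.66e-05). Ccnd1 went from 18.6 to 36.6 CPM in early prophase to 3.12 to 13.8 CPM in late spermatocytes, again without overlap, with a log2 fold change of -1.05 ± 0.36 (adjusted p = 0.0253). The lowest of these, in WT replicate 1, stood against 2.49 CPM from free RNA alone. In all, 3 of 10 members rose and 2 of 10 fell, where 18.1% of all genes tested were called higher and 16.1% lower.

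Cdk7 did not follow the B-type cyclins. It had 54.8, 36.2, 47.6 and 51.2 CPM in early prophase and 43.7, 81.4, 56.3 and 44.9 CPM in late spermatocytes, with overlap and a log2 fold change of 0.24 ± 0.28 (adjusted p = 0.549). Ccne1, the other E-type cyclin, was low in both classes (13.3 ± 2.07 and 10.1 ± 5.63 CPM) and did not pass the test (adjusted p = 0.341).

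**Figure D2:**
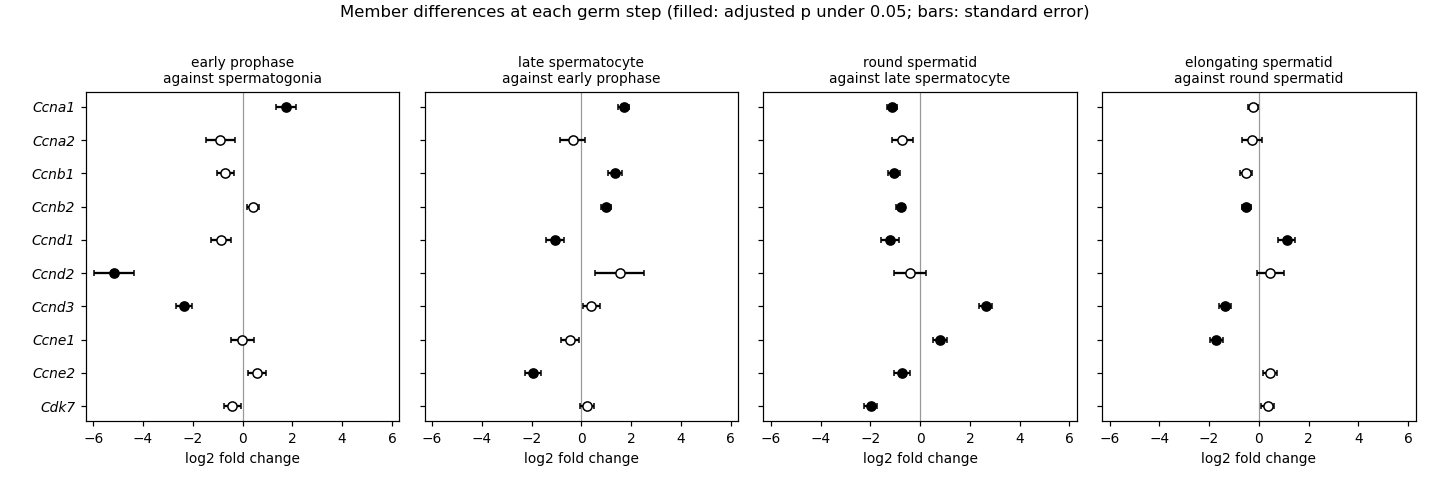
Log2 fold change of each member at the 4 steps between neighbouring germ classes, with bars for the standard error and filled points for an adjusted p under 0.05. Ccna1, Ccnb1 and Ccnb2 lie to the right of 0 from early prophase to late spermatocytes and to the left of it from late spermatocytes to round spermatids, where Ccnd3 lies at 2.63.

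Round spermatids, the first cells after the meiotic divisions, were lower than late spermatocytes in 6 of the 10 genes and higher in Ccnd3 and Ccne1. Ccnd3 had 60.4, 41.4, 20.7 and 19.4 CPM in late spermatocytes and 121, 135, 104 and 128 CPM in round spermatids. Each round spermatid library was above each late spermatocyte library, and the log2 fold change of 2.63 ± 0.27 was the largest rise of a member at any germ step (adjusted p = 5.84e-10). In elongating spermatids Ccnd3 fell again, to 49.7 ± 3.22 CPM, with a log2 fold change of -1.36 ± 0.24 (adjusted p = 1.21e-05).

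Cdk7 fell most at this step, from 56.6 ± 17.5 CPM to 7.14, 11.1, 7.48 and 8.40 CPM in round spermatids, with a log2 fold change of -1.98 ± 0.27 (adjusted p = 1.01e-07). Its partners in the CDK-activating kinase fell too: Ccnh from 35.4 ± 13.6 to 5.29 ± 1.11 CPM, with a log2 fold change of -2.05 ± 0.29 (adjusted p = 3.06e-07). Mnat1, the assembly factor, went from 75.7 ± 14.0 to 11.2 ± 0.911 CPM, with a log2 fold change of -2.01 ± 0.28 (adjusted p = 2.27e-07). The 3 subunit genes of the kinase were thus all lower in round spermatids. The fall was not particular to them. Of the 6 genes Cdk1, Cdk2, Cdk4, Cdk6, Ccnh and Mnat1, 5 were called lower, with Ccnh and Mnat1 themselves among them. So were 34 of 54 cell cycle regulators tested and 33.4% of all genes tested.

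Ccna1 fell by 1.14 on the log2 scale (SE 0.19, adjusted p = 4.02e-06), to 26.1 ± 3.01 CPM. Ccnb1 fell by 1.04 (SE 0.24, adjusted p = 0.000242) and Ccnb2 by 0.79 (SE 0.19, adjusted p = 0.000389), to 18.7 ± 2.56 and 64.9 ± 7.13 CPM. Ccnd1 fell by 1.21 (adjusted p = 0.00314) and Ccne2 by 0.73 (adjusted p = 0.0411). Ccne1 was called higher, with a log2 fold change of 0.81 ± 0.29 (adjusted p = 0.0145), although its CPM means were 10.1 ± 5.63 and 10.3 ± 3.01, since the fit scales libraries by TMM and not by total UMIs.

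At this step 2 of 10 members rose and 6 of 10 fell, where 36.4% of all genes tested were called higher and 33.4% lower. Without Dhx37-/- replicate 2 the number of members called was 5 in place of 8. From round to elongating spermatids 1 of 10 rose and 3 of 10 fell, where 32.5% of genes were called higher and 31.9% lower. The rise was that of Ccnd1, from 3.01 ± 0.663 to 6.90 ± 2.23 CPM with a log2 fold change of 1.11 ± 0.33 (adjusted p = 0.00368). Ccne1 fell by 1.70 (SE 0.28, adjusted p = 2.87e-06) and Ccnb2 by 0.51 (SE 0.19, adjusted p = 0.0165).

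A list of 55 other cell cycle regulators, of which 54 were tested, gives the setting. From spermatogonia to early prophase 13 rose and 6 fell, and from early prophase to late spermatocytes 10 rose and 9 fell. From late spermatocytes to round spermatids 8 rose and 34 fell, and from round to elongating spermatids 14 rose and 11 fell. Of all 22620 genes tested, 11.9%, 18.1%, 36.4% and 32.5% were called higher at these steps and 5.78%, 16.1%, 33.4% and 31.9% lower. The median log2 fold changes of the list at these steps were 0.15, 0.04, -1.06 and 0.17, beside 0.26, 0.10, 0.07 and 0.14 for all genes tested and -0.55, 0.32, -0.76 and -0.26 for the members.

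Cdk6, a kinase partner of D-type cyclins, fell at entry into prophase as Ccnd3 did. It went from 244 ± 44.7 to 33.8 ± 16.4 CPM, with a log2 fold change of -2.79 ± 0.36 (adjusted p = 3.57e-06). Cdk4, the other kinase partner, and Ccnd1 were not called at this step. Of the 6 genes Cdk1, Cdk2, Cdk4, Cdk6, Ccnh and Mnat1, 1 was called lower and 0 higher. Spdya, which encodes an activator of Cdk2 needed in meiosis, rose at the same step from 46.0 ± 21.7 to 165 ± 49.4 CPM (log2 fold change 2.53 ± 0.33, adjusted p = 4.72e-06). Mybl1, a transcription factor of pachytene spermatocytes, rose at both meiotic steps, from 24 ± 14.1 through 84.3 ± 8.49 to 138 ± 21.1 CPM, with log2 fold changes of 2.41 ± 0.34 (adjusted p = 1.33e-05) and 0.77 ± 0.22 (adjusted p = 0.00756). Letters of its binding motif, AACNG on either strand, were present 3 times in the Ccna1 window, 3 times in that of Ccnb1 and not in that of Ccnb2, and in 80.2% of all promoter windows.

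Wee2, an inhibitory kinase of Cdk1, peaked in late spermatocytes, with 15.0 ± 12.2, 86.9 ± 42.6 and 0.796 ± 0.229 CPM in early prophase, late spermatocytes and round spermatids. Its log2 fold changes were 2.46 ± 0.34 (adjusted p = 1.62e-06) and -5.93 ± 0.37 (adjusted p = 6.19e-14). Mki67, the gene of a proliferation antigen, fell by 2.81 on the log2 scale between early prophase and late spermatocytes (SE 0.31, adjusted p = 4.48e-08), where Ccna1, Ccnb1 and Ccnb2 rose. In elongating spermatids the CDK inhibitor gene Cdkn1a rose from 2.08 ± 1.25 to 48.7 ± 9.10 CPM (log2 fold change 4.46 ± 0.30, adjusted p = 6.96e-14).

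Among somatic classes Cdk7 was highest in Sertoli nuclei, the nurse cells of the tubule, with 160, 116, 153 and 181 CPM on 17 to 592 UMIs. The value of WT replicate 2 rested on few UMIs: 1 nucleus above 5000 genes gave 7 of its 17, and the other 27 nuclei gave 75.8 CPM (95% Poisson interval 36.4 to 139), within the range of other classes. The other 3 libraries exceeded the highest value of any other class (107 CPM, in spermatogonia). Against the mean of 5 other somatic classes the log2 fold change was 1.75 ± 0.16 (adjusted p = 9.01e-12), and with nuclei of up to 5000 genes it was 1.61 (adjusted p = 1.78e-09).

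Of the D-type cyclins, Ccnd2 and Ccnd3 were lower in Sertoli nuclei and Ccnd1 did not pass the test. Ccnd3 had 18.6, 27.3, 10.2 and 13.1 CPM there, against 478, 504, 268 and 206 CPM in macrophages and 226 ± 39.4 CPM in fibroblasts. The log2 fold change against the other somatic classes was -3.31 ± 0.24 (adjusted p = 5.54e-15). Ccnd2 had 7.03 ± 1.78 CPM in Sertoli nuclei, 84.3 ± 24 CPM in fibroblasts and 79.7 ± 32.1 CPM in peritubular myoid cells, the contractile cells around the tubule. It was not lower than in every class, since macrophages had 3.69 ± 3.33 CPM and endothelial cells 37.4, 4.00, 32.4 and 0 CPM. Against the mean of the classes the log2 fold change was -1.46 ± 0.34 (adjusted p = 0.000351). Ccnd1 had 4.66, 34.1, 8.76 and 8.54 CPM in Sertoli nuclei, within the range of the other somatic classes, and a log2 fold change of 0.11 ± 0.43 (adjusted p = 0.849).

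Ccne2 was also called higher in Sertoli nuclei (4.66, 34.1, 24.3 and 20.1 CPM), with a log2 fold change of 0.84 ± 0.32 (adjusted p = 0.0231), a call that was lost with nuclei of up to 5000 genes (adjusted p = 0.114) and without doublet calls (adjusted p = 0.15). WT replicate 1, on 3 UMIs, and both Dhx37-/- libraries lay within the range of the other somatic classes, which reached 30.2 CPM in peritubular myoid cells. Ccnb2 was called lower, with a log2 fold change of -0.65 ± 0.25 (adjusted p = 0.0246). Its Sertoli level of 17.7 ± 4.92 CPM stood against 13.9 to 18.8 CPM from free RNA alone and exceeded it in 2 of 4 libraries. Macrophages, at 27.1 ± 11.54 CPM, exceeded the 33.6 to 38.1 CPM from free RNA alone in 1 of 4 libraries, and endothelial cells, at 40.2 ± 31.1 CPM, did so in 2 of 4. Free RNA gave 16.7% to 30.0% of the UMIs of macrophages and 15.7% to 28.1% of those of endothelial cells, more than in Sertoli nuclei, and its part in the Ccnb2 difference was not tested. In all, 2 of 7 members tested were higher in Sertoli nuclei and 3 of 7 lower, where 30.3% of 12844 genes were called higher and 27.8% lower; Ccna2, Ccnb1 and Ccne1 did not pass the filter on low counts.

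Of the regulators, 31 were tested in this comparison, and 11 were higher and 3 lower in Sertoli nuclei. Of all genes tested, 30.3% were called higher and 27.8% lower. Rb1, the retinoblastoma gene, was at 308 ± 8.65 CPM, with a log2 fold change of 1.71 ± 0.16 (adjusted p = 6.21e-12). Cdk1, Cdk2 and Cdk4, whose cyclin partners include the members, were higher by log2 fold changes of 1.76 ± 0.33, 1.44 ± 0.28 and 1.02 ± 0.25 (adjusted p = 1.85e-05, 3.67e-05 and 0.000836). Of the 3 CDK inhibitor genes tested 1 was higher and 2 were lower, among the lower Cdkn1c, at -1.04 ± 0.33 (adjusted p = 0.00717).

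T cells were described only, since 1 WT library held 9 of them. Ccnd2 stood at 320, 279, 268 and 370 CPM there, above every library of every other class. Ccnd3 was highest there as well, at 511, 478, 634 and 835 CPM, overlapping the macrophage values. Ccnd1 had no UMI in T cells of any library, on sums of 25118 to 123083 UMIs, which are too small to set it apart from the low levels of other classes.

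**Figure D3:**
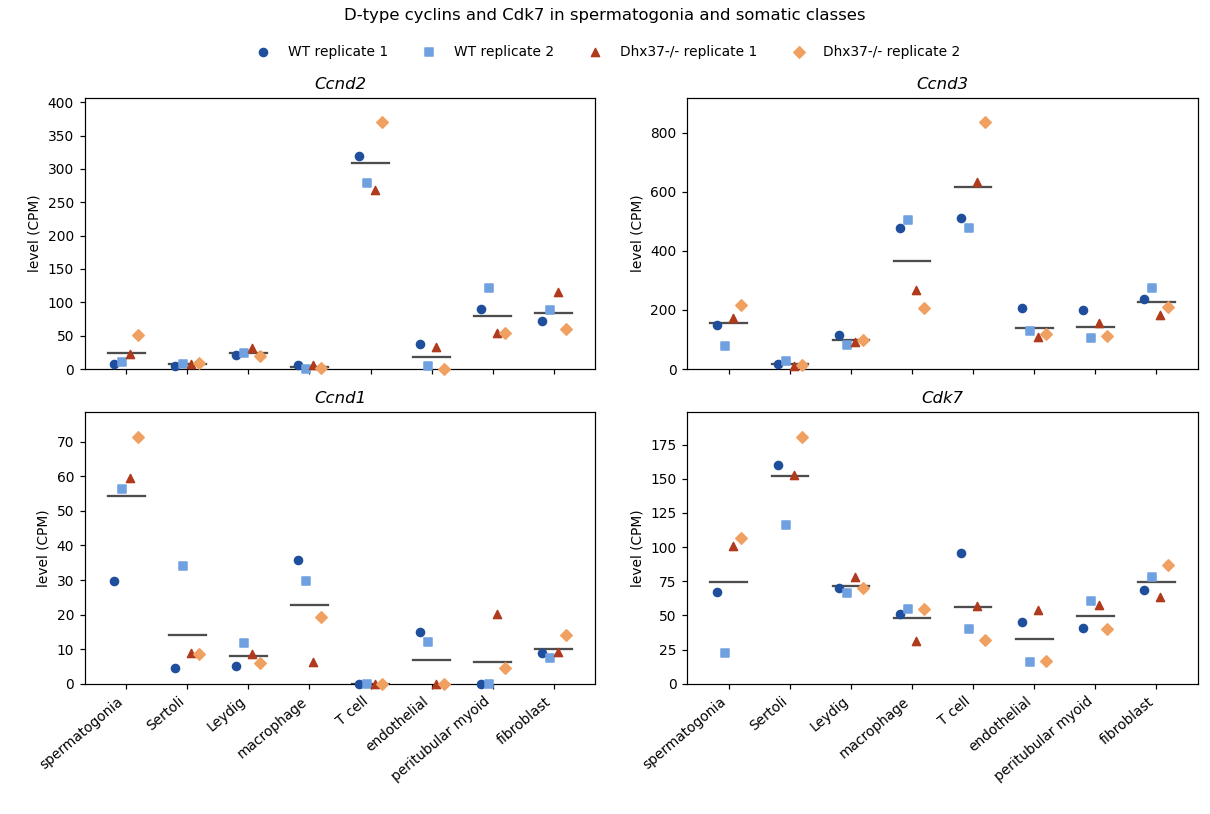
Levels (CPM, linear axes from 0) of the 3 D-type cyclins and Cdk7 in spermatogonia and the somatic classes, with 1 point per library. Ccnd2 and Ccnd3 are highest in T cells, Ccnd1 in spermatogonia, and Cdk7 in Sertoli nuclei, where the 4 libraries lie between 116 and 181 CPM.

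Ordered by mean level over the 12 classes, most neighbours overlapped. The ranges were apart between late spermatocytes and early prophase for Ccna1, between late spermatocytes and spermatogonia and between early prophase and round spermatids for Ccnb2, and between T cells and fibroblasts and peritubular myoid and Leydig cells for Ccnd2. They were apart between Leydig cells and elongating spermatids for Ccnd3, between late spermatocytes and elongating spermatids for Ccne1, and between endothelial cells and elongating spermatids for Cdk7. Sertoli nuclei and spermatogonia were apart for Cdk7 only with the 1 nucleus of WT replicate 2 above 5000 genes. Ccna2, Ccnb1 and Ccne2 had no pair of neighbours without overlap, and Ccnd1 had one only against T cells, where no UMI was read.

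The genes with the most similar patterns were taken as those with the highest Pearson correlation of log2(CPM + 1) over 48 sums of 12 classes in 4 libraries, which share libraries and depth. For Ccna1 they were Slco6c1 (r = 0.87) and 1700018A04Rik (r = 0.87), for Ccnb1 Trim69 (0.86) and Mad2l2 (0.85), and for Ccnb2 Fam184a (0.89) and Cdc20 (0.89), an activator of the anaphase-promoting complex. Ccna2 was most like Fanci (0.69) and Mki67 (0.68), Ccnd1 like Gm15789 (0.76) and Palb2 (0.75), Ccnd2 like Gm49959 (0.84) and Gm12216 (0.82), and Ccnd3 like Msn (0.86) and Bcor (0.86). Ccne1 was most like A230103L15Rik (0.78) and Terb2 (0.78), Ccne2 like Nufip1 (0.81) and the DNA helicase gene Blm (0.76), and Cdk7 was among others like Rprd2 (0.91).

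Between the genotypes no member passed the test in any of 11 classes. Of 68 tests of a member in a class, 0 had an adjusted p under 0.05 with edgeR and 0 with DESeq2. With edgeR 4 had an unadjusted p under 0.05. Of all genes, 21.3%, 35.4%, 25.5%, 7.01% and 11.6% did so in the 5 germ classes, in order of stage. In peritubular myoid cells and fibroblasts 9.05% and 9.49% did. The share of all genes called was 6.91% in spermatogonia, 23.3% in early prophase, 1.09% in late spermatocytes, 0.00514% in round and 0.026% in elongating spermatids, 0.0518% in peritubular myoid cells and 0.108% in fibroblasts. It was 0% in Sertoli, Leydig and endothelial cells and macrophages, where 752, 722, 62 and 863 genes had an unadjusted p under 0.05 and DESeq2 called 0, 2, 0 and 4. With 2 libraries per genotype a p that misses the threshold does not show that the genotypes were alike.

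In late spermatocytes Ccna1 had 103 and 93.8 CPM in WT and 112 and 67.4 CPM in Dhx37-/-, a log2 fold change of -0.05 ± 0.28 (edgeR, adjusted p = 0.925). Ccnb1 had 53.1 and 88.3 against 71.9 and 46.5 CPM (-0.16 ± 0.32, adjusted p = 0.799), and Ccnb2 136 and 215 against 217 and 171 CPM (0.24 ± 0.26, adjusted p = 0.588). The genotypes overlapped for all 3 genes with all nuclei. With nuclei of up to 5000 genes Ccnb2 had 137 and 209 CPM in WT and 265 and 218 CPM in Dhx37-/-, without overlap. Its log2 fold change was then 0.54 (edgeR, adjusted p = 0.252). In early prophase both Dhx37-/- libraries exceeded both WT libraries for Ccnb2 (121 and 102 against 79.2 and 77.5 CPM). The same order held in round and elongating spermatids and in Sertoli, Leydig, macrophage and peritubular myoid nuclei. In spermatogonia, T cells, endothelial cells and fibroblasts the genotypes overlapped. None of those tested passed, and the share of all genes in that order was not computed. Cdk7 in Sertoli nuclei, the class of the targeted gene, had 160 and 116 CPM in WT and 153 and 181 CPM in Dhx37-/- (log2 fold change 0.14 ± 0.30, adjusted p = 0.967).

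Elsewhere Ccnd1 in spermatogonia had a log2 fold change of 0.57 ± 0.53 (adjusted p = 0.577), Ccnd2 in fibroblasts one of 0.14 ± 0.33 (adjusted p = 0.953) and Ccne2 in early prophase one of -0.57 ± 0.34 (adjusted p = 0.252). The other members tested in Sertoli nuclei were Ccnb1 at 0.09 ± 0.68, Ccnb2 at 0.56 ± 0.49, Ccnd1 at -0.41 ± 0.77, Ccnd2 at 0.62 ± 0.74, Ccnd3 at -0.88 ± 0.49 and Ccne2 at 0.95 ± 0.66, with adjusted p from 0.834 to 0.991. Some of these changed sign with 1 library left out: Ccne2 was -0.52 without WT replicate 1, Ccnd1 0.75 without WT replicate 2 and Ccnb1 -0.52 without WT replicate 1. Ccna2 and Ccne1 in spermatogonia did not pass the filter on low counts.

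**Figure D4:**
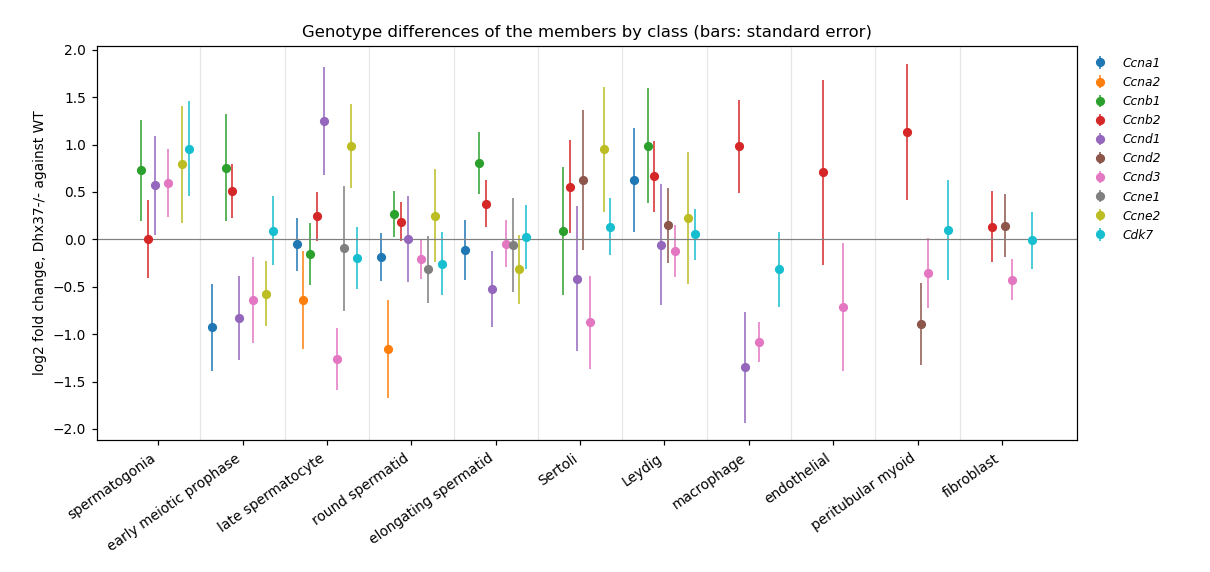
Log2 fold change between Dhx37-/- and WT of each member tested in each of 11 classes, with bars for the standard error. None of the 68 points has an adjusted p under 0.05. The Ccnd3 values in late spermatocytes (-1.26) and macrophages (-1.08) lie below 0 by more than 3 standard errors, which were derived from the test statistic.

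Ccnd3 in macrophages came closest by its unadjusted p. It had 478 and 504 CPM in WT and 268 and 206 CPM in Dhx37-/-, without overlap, and a log2 fold change of -1.08 ± 0.21 (unadjusted p = 0.000368, adjusted p = 0.222). It passed with nuclei of up to 5000 genes (adjusted p = 0.0443) and without doublet calls (0.0156). With 1 library left out, which leaves a genotype with 1 library and no spread of its own, the adjusted p was 0.00176 and 0.0011 without WT replicates 1 and 2 and 0.696 and 0.636 without Dhx37-/- replicates 1 and 2. T cell markers summed to 35.8 and 76.2 CPM in WT macrophages and 35.6 and 38.7 CPM in Dhx37-/- macrophages, with 3 of 9 markers at 0 in all libraries. Markers of other cells moved with the genotype: the Leydig panel summed to 217 and 93.1 CPM in WT and 564 and 492 CPM in Dhx37-/- macrophages, and the elongating spermatid panel to 4627 and 5806 against 9515 and 7304 CPM. The part of these shifts in the result was not tested.

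Ccnd3 in late spermatocytes, named after its values were seen, had 60.4 and 41.4 CPM in WT and 20.7 and 19.4 CPM in Dhx37-/- (log2 fold change -1.26 ± 0.33, adjusted p = 0.0820). Free RNA alone would give 34.5, 17, 7.94 and 11.2 CPM in these libraries, in the same order. The round spermatid panel summed to 845 and 661 CPM in WT and 471 and 484 CPM in Dhx37-/- late spermatocytes, and Ccnd3 stood at 122 ± 13.5 CPM in round spermatids. The part of either in the difference was not tested.

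The steps themselves were compared between the genotypes by an interaction term. Of 40 tests (10 members at 4 steps), 0 passed with edgeR and 0 with DESeq2, and 8 had an unadjusted p under 0.05 (3, 3, 2 and 0 at the 4 steps), where 2494, 2649, 4083 and 1496 of all 24064 genes did. Of all 24064 genes tested, 1.3%, 0.873%, 5.04% and 0.0416% were called at the 4 steps. Without WT replicate 2, which leaves 1 WT library, Ccnd1 and Ccnd3 passed at the step from late spermatocytes to round spermatids.

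Of 356 tests of a regulator in a class, 5 passed, all higher in Dhx37-/- and all in early prophase, where 23.3% of all genes tested were called. The count is therefore no result about the regulators as a list. Cntd1, a cyclin-like gene of meiotic crossing over, had 60.9 and 56.8 CPM in WT and 163 and 191 CPM in Dhx37-/- (log2 fold change 1.61 ± 0.30, adjusted p = 0.0014), and Mnat1 67.0 and 36.2 against 168 and 166 CPM (1.62 ± 0.32, adjusted p = 0.00183). Cdc20, Pkmyt1 and Cdk4 had log2 fold changes of 1.37 ± 0.33, 1.65 ± 0.55 and 3.31 ± 0.97 (adjusted p = 0.007, 0.0404 and 0.0211). The gated nuclei were not alike in stage markers. The late spermatocyte panel summed to 999 and 852 CPM in WT and 1721 and 1577 CPM in Dhx37-/- early prophase. The spermatogonia panel summed to 494 and 527 against 333 and 289 CPM, and the round spermatid panel to 1475 and 1472 against 685 and 775 CPM. The part of these shifts in the regulator differences was not tested.

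Nuclei with more than 5000 genes, which the study's own filter removes, numbered 13 and 15 in WT and 204 and 302 in Dhx37-/-. Of those in Dhx37-/- replicates 1 and 2, 50 and 93 were gated as late spermatocytes and 55 and 66 as Sertoli cells, and 66 and 101 were called doublets. WT had 1 late spermatocyte of this kind per library, so no comparison with WT was made. Within Dhx37-/-, Ccnb2 in late spermatocytes stood at 120 CPM (95% Poisson interval 98.4 to 144) above 5000 genes and at 265 CPM (242 to 290) below in replicate 1, and at 107 CPM (91.7 to 125) and 218 CPM (199 to 238) in replicate 2. These intervals cover counting error only.

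Ccnb1 showed the same order, at 30.5 CPM (20.3 to 44.1) against 92.7 CPM (79.3 to 108) in replicate 1 and 24.6 CPM (17.5 to 33.6) against 62.4 CPM (52.3 to 73.8) in replicate 2. Cdk7 had 27.2 CPM (17.6 to 40.2) against 70.9 CPM (59.2 to 84.2) and 28.4 CPM (20.7 to 38.0) against 56.9 CPM (47.3 to 67.8). The intervals were apart for these 3 genes in both libraries, whereas for Ccna1 they overlapped in both (90.4 against 123 CPM and 56.1 against 75.7 CPM). The share of all genes with intervals apart was not computed, so this is no result about these genes in particular. Doublet calls made up 4 of 50 and 16 of 93 of the nuclei above 5000 genes, and without them Ccnb2 stood at 122 against 267 CPM and 104 against 220 CPM. The nuclei above 5000 genes had less of the late spermatocyte panel (1951 against 2434 and 1965 against 2344 CPM) and more of the early prophase panel (2045 against 1827 and 2305 against 1933 CPM). Their median depths were 16854 against 4696 UMIs in replicate 1 and 16366 against 5215 UMIs in replicate 2. Free RNA gave 8.40% against 13.1% and 10.6% against 14.7% of their UMIs. The part of stage, depth and free RNA in these levels was not tested.

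**Figure D5:**
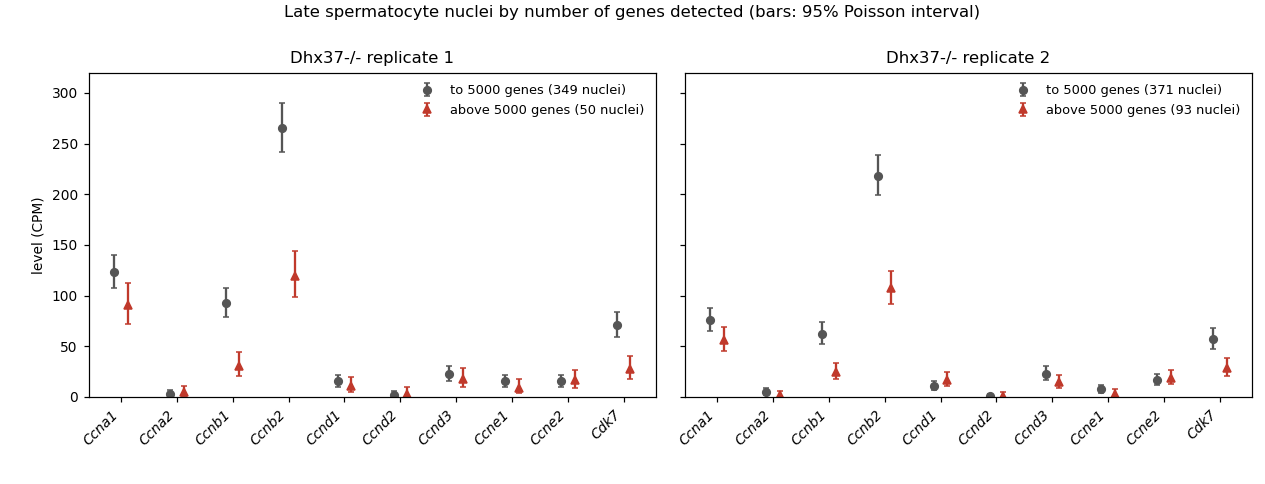
Levels (CPM) of the 10 members in late spermatocyte nuclei with more than 5000 genes and with up to 5000 genes, in the 2 Dhx37-/- libraries, with bars for the 95% Poisson interval of the count. Ccnb2, Ccnb1 and Cdk7 lie lower above 5000 genes in both libraries, with intervals that are apart. The share of all genes with intervals apart was not computed, and the nuclei also differ in depth.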

How the data were processed

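Nuclei of whole testes were sequenced with the 10x 3′ assay. The authors deposited unfiltered matrices of UMI counts per gene and barcode, whose header names Cell Ranger 7.2.0. The submitters' processing notes name bcl2fastq, Cell Ranger, Seurat 3.1.1 and GRCm38 (mm10), whereas the methods name another build and version, so no gene coordinates were taken from the files. Whether intronic reads were counted is not given in the sources used here.

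Barcodes needed at least 500 UMIs, 500 genes and at most 25% mitochondrial UMIs. Those above a depth threshold were kept without a test against free RNA. The threshold was 1017 and 926 UMIs in WT replicates 1 and 2 and 1603 and 1867 UMIs in Dhx37-/- replicates 1 and 2. Barcodes up to it also needed a count profile that differed from free RNA (adjusted p under 0.01 over 10000 simulations). Barcodes above 5000 genes were kept. Doublets were called with Scrublet (scanpy 1.11.5, Python 3.11.15, numpy 2.4.6) and kept, and left out as an alternative. Nuclei were gated by 12 marker panels (132 of 134 listed genes were in the files) with a Poisson score, requiring a score and a margin above 2 and at least 3 distinct markers. These limits were set after the counts were seen, and 8.11% of gated nuclei lay near them. The share differed by class. Near them were 30 of 196 spermatogonia, 91 of 890 early prophase nuclei, 325 of 1312 late spermatocytes, 932 of 6444 round and 231 of 8720 elongating spermatids.

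For each class the counts of a library were added up and tested with edgeR 4.0.16 (R 4.3.3; TMM, quasi-likelihood, filter on low counts, Benjamini-Hochberg over all genes tested). Stage and somatic fits had the library as a block and left gate markers out, and genotype fits compared 2 with 2 libraries per class with at least 10 nuclei each. The SE given with an edgeR log2 fold change was derived from the statistic of its test, so it is no evidence beyond the p-value. DESeq2 1.42.0 was an alternative. The labels call the libraries of a genotype biological replicates but do not give the animals, so p-values measure the spread between these samples. All 10 members are named; genotype values are named for Sertoli nuclei and for the class of each member's highest level among the 11 classes compared between genotypes, which leave out T cells. The members, panels and lists were chosen with earlier results of these data known. The fits were tested on simulated data. The deviations of same-numbered libraries had correlations of -0.25 to 0.38 over 11 classes, above 0.1 in endothelial cells alone, and the labels tie the numbers to nothing shared, so they were not taken as pairs. Of the genes with the most similar patterns, not all are reported here.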

Additional observations from a re-analysis of the deposited data

Results flagged for a closer look

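The 6 values below are differences between the genotypes in a step from one germ class to the next, by the interaction term of the edgeR fit (Dhx37-/- minus WT, log2 scale, adjusted over all genes tested). All concern regulators and none a member. For Ccng1, a cyclin of the p53 response, the step from spermatogonia to early prophase differed by -3.36 ± 0.86 (adjusted p = 0.0172), and WT replicate 1 had no Ccng1 UMI in spermatogonia. At the step from early prophase to late spermatocytes Cdc20 differed by -1.47 ± 0.39 (adjusted p = 0.0334) and Mnat1 by -1.63 ± 0.41 (adjusted p = 0.022). Both were also called higher in Dhx37-/- early prophase, where the gated nuclei of the genotypes were not alike in stage markers. The part of that shift in these values was not tested. Cdk6 differed at the same step by 2.14 ± 0.51 (adjusted p = 0.0101). At the step from late spermatocytes to round spermatids Cdk6 differed by -1.80 ± 0.42 (adjusted p = 0.00216) and Cntd1 by -1.36 ± 0.32 (adjusted p = 0.00212). These were 6 of 220 tests of a regulator, and 31 had an unadjusted p under 0.05. Of all 24064 genes tested, 314, 210, 1214 and 10 were called at the 4 steps and 2494, 2649, 4083 and 1496 had an unadjusted p under 0.05, so the counts are no result about the regulators as a list.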

How the results depend on the processing

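The number of members called from spermatogonia to early prophase was 3, with Ccnd2 among them. In the WT libraries alone it was 0, and in the Dhx37-/- libraries alone, which hold more nuclei of both classes, 5. It was 5 with 1 more marker required, 5 with DESeq2 size factors and 1 to 4 with 1 library left out. From late spermatocytes to round spermatids it was 8, 5 in WT alone and 5 to 8 with 1 library left out, lowest without Dhx37-/- replicate 2. In Sertoli nuclei it was 5, and 3 without the library block, 3 in WT alone and 3 to 5 with 1 library left out. Between genotypes the 0 calls became 1 with nuclei of up to 5000 genes, 1 without doublets, 1 without the filter on low counts, and 0 to 3 with 1 library left out, most without WT replicate 2. With the replicate number as a block 1 member test passed (Ccnd3 in macrophages), and with crossed numbers, an alternative added after seeing the data, 2 passed. Interaction calls were 0 to 2 with 1 library left out. In the genotype fits a lone library was assumed to vary like those of the other genotype. The share of all genes called under each setting is not given beside these counts, so a change in them is no result about the members.

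Some genotype log2 fold changes, none of which passed the test, changed sign. Ccna1 in late spermatocytes was 0.0057 with nuclei of up to 5000 genes and 0.0872 without the filter on low counts, and Ccnb1 there was 0.25 with nuclei of up to 5000 genes. Ccnb1 in Sertoli nuclei was -0.30 without the test against free RNA, -0.0436 with DESeq2 and -0.0288 with the crossed block. With 1 library left out the ranges were -0.40 to 0.27 (Ccna1, late spermatocytes), -0.44 to 0.23 (Ccnb1, late spermatocytes), -0.52 to 0.36 (Ccnb1, Sertoli), -1.86 to 0.75 (Ccnd1, Sertoli), -0.42 to 0.50 (Ccnd2, fibroblasts), -0.52 to 2.10 (Ccne2, Sertoli) and -0.0662 to 0.64 (Cdk7, Sertoli). The cause was not tested for any of these. DESeq2 size factors moved the median of all genes by -0.40, 0.15, -0.07 and 0.18 at the 4 germ steps, in order.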
